A study of Mus musculus with 8 samples.

Results

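A group of 7 genes that serve as identity receptors and lineage factors of macrophages was followed through an inflammatory stimulus given with or without interleukin-10. They were the receptors Csf1r, Trem2 and Mertk, the adaptor Tyrobp and the transcription factors Spi1, Irf8 and Cebpb. They were chosen by name, and all 7 were found among the 11415 genes of the deposited table. The cells were bone marrow-derived macrophages of 129S6/SvEvTac mice with the genotype IL10-/-RAG2-/-, grown for 5 days in M-CSF conditioned medium, so every group lacked intact Il10 and Rag2 and every group had been exposed to the ligand of Csf1r. Of the 4 groups, one received LPS at 1 ng/mL and IL-10 at 1 ng/mL together for 195 min (IL-10 throughout), one received LPS for 195 min with IL-10 added for its final 30 min (late IL-10), one received LPS alone at 1 ng/mL for 195 min, and one was untreated. For the late group the labels name no separate IL-10 dose. LPS is a bacterial lipopolysaccharide sensed through Toll-like receptor 4, and IL-10 is an anti-inflammatory cytokine. Ribosome-depleted, directional RNA sequencing gave a mature mRNA value and a pre-mRNA value per gene in 2 libraries of each group.

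Csf1r is the receptor tyrosine kinase for CSF1 and IL-34 and carries the survival and differentiation signal of macrophages. Trem2 binds lipids and apoptotic material and signals through the ITAM adaptor Tyrobp (DAP12), while Mertk is a TAM receptor tyrosine kinase that takes up apoptotic cells through the bridging ligands Gas6 and protein S. Spi1 encodes PU.1, the ETS-family pioneer factor of the myeloid lineage. Irf8 is an interferon regulatory factor needed for monocyte and dendritic cell development, and Cebpb is a bZIP factor of myeloid maturation and the acute inflammatory response. Pre-mRNA still carries introns and is short-lived, so its level tracks recent transcription better than that of the mature message, although splicing and decay of the precursor also set it.

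Promoter sequence is shown for the members whose transcripts differed most between groups and for which RefSeq (GRCm38.p6, the mm10 assembly) gave a window, each being the 250 bases before the gene's start on the + strand. Windows of 4 of the 7 members were searched (Trem2, Mertk, Cebpb and Irf8, the last with 2 starts). The Csf1r promoter was not part of this search, which does not show that RefSeq lacks a window for it. Capitals mark matches, on either strand, to the AP-1-like letters TGANTCA (N being any base) or to any of the other motifs named after the sequences. They were shown so that the promoters of genes with unlike responses can be compared. The windows are Trem2 at chr17:48346151-48346400, Mertk at chr2:128698665-128698914 and Cebpb at chr2:167688665-167688914.
Trem2: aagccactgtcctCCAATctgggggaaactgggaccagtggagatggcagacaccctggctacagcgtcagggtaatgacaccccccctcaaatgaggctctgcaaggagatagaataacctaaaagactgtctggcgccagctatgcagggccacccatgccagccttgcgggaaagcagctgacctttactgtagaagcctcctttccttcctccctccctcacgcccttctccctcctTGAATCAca
Mertk: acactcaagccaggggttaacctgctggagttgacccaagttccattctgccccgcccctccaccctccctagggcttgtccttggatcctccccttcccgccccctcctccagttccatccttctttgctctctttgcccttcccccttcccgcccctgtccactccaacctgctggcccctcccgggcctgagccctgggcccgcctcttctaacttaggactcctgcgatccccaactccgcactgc
Cebpb: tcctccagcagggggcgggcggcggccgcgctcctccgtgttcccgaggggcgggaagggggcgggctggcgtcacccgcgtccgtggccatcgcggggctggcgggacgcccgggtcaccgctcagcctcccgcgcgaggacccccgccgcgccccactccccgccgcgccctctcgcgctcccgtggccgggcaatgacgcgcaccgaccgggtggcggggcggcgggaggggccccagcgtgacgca
The AP-1-like letters TGANTCA occurred in 6.75% of all 32851 windows. The Trem2 window held 1 match to them, spanning bases -9 to -3 and reading TGAATCA. It also held CCAAT letters, starting at -237, as did the first Irf8 window, starting at -121 on the opposite strand (33.8% of all windows). The first Irf8 window held a TATA motif (TATAAA, 12.4% of all windows), starting at -31. The Mertk and Cebpb windows held none of the motifs searched and so carry no capitals. None of the 5 member windows contained the PU.1 letters GAGGAAGT (2.44% of all windows), the ETS core CGGAAG (13.6%), the C/EBP letters TTNNGNAA (36.8%), the CRE letters TGACGTCA (1.55%) or the E-box CACGTG (6.02%), on either strand. GC content was 56% for Trem2, 63.6% for Mertk and 81.6% for Cebpb, against a median of 52.4% over all windows. A match describes letters in the window and was not tested as a binding site.

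All levels are normalized reads, that is, reads of a library divided by its size factor, and the 2 libraries of a group are called A and B. The letters are assigned within each measure, so A by mRNA and A by pre-mRNA may be different cultures. Summed over the table, a library had between 21412968 and 53172133 reads by mRNA and between 8661271 and 31508394 by pre-mRNA. The libraries of a group stood apart in a list of 15 interferon-stimulated genes chosen after the values were seen: by mRNA, their median distance was 1.51 on the log2 scale with IL-10 throughout, 1.36 with late IL-10, 1.31 with LPS and 0.58 in untreated cells. In each LPS-treated group, the library with the higher interferon-stimulated genes also had lower Csf1r and Trem2 (both measures), lower Spi1 and Cebpb mRNA, lower Tyrobp pre-mRNA, higher Spi1 pre-mRNA, higher Tyrobp mRNA and higher Mertk (both measures), in 3 of 3 groups. Irf8 was higher in that library in 2 of 3 groups by each measure. In untreated cells library B had the higher interferon-stimulated genes by both measures. The directions seen in 3 of 3 LPS-treated groups were reversed there, except for Spi1 pre-mRNA. For example, untreated Csf1r mRNA was 129546 in B against 104549 in A, and Mertk mRNA 3083 against 5049. The part of these library differences in the results was not tested, and values without single libraries are given where they decide a call. B cell and mast cell markers were not in the table (0 of 5 each), nor were Cd3e, Ly6g, Flt3 or Col1a1. Every gene in the table had at least 11 reads in each LPS mRNA library, a floor that the untreated libraries did not have. Absence from the table therefore does not describe untreated cells. Dendritic cell markers (5 of 10 in the table, mostly Itgax, which macrophages also express) summed to 3057 to 4661 mRNA reads with IL-10 throughout, 8944 to 16010 with late IL-10, 9528 to 17950 with LPS and 1363 to 2911 in untreated cells. Neutrophil markers (8 of 12) summed to 2400 to 4267, 3264 to 4984, 3305 to 5089 and 2070 to 2657 in the same groups. Mmp8 made up most of the untreated sum, at 2078 reads, and did not pass the threshold with LPS, at 1574, but 6 of the 8 rose with LPS by mRNA, with a median change of 3.03 over the 8. Among them S100a9 averaged 287.3 with LPS against 27.8 in untreated cells, and Camp 130.2 against 7.19. By the floor on LPS reads, neutrophil markers that stayed low with LPS could not be among the 8, so this count does not weigh them. T and NK cell markers (3 of 9, mostly Cd28) summed to 409.1 to 796.2, 542.1 to 956.7, 449.2 to 762.0 and 3341 to 5608, and stromal markers (2 of 8, mostly Pdgfrb) to 600.4 to 687.2, 2339 to 2386, 2418 to 2637 and 122.4 to 249.5. The 3 T and NK cell markers did not move together: by mRNA with LPS 1 fell and 1 rose, beside 35.7% of all genes called. Lck rose, at 76.9 with LPS against 6.41 in untreated cells. Erythroid and megakaryocyte markers (2 of 7, mostly Pf4) summed to 446.3 to 791.7 mRNA reads with IL-10 throughout, 1571 to 1786 with late IL-10, 1716 to 1766 with LPS and 130.3 to 467.0 in untreated cells. Endothelial markers (3 of 5, mostly Vwf by mRNA) summed to 8329 to 9319 mRNA reads with IL-10 throughout and 9713 to 12350 with late IL-10. With LPS they summed to 9448 to 12590, which overlapped the 11080 to 22270 of untreated cells. By pre-mRNA the endothelial sums were 592.9 to 1084, 1608 to 1686, 1551 to 1992 and 2655 to 4167 in the same order of groups. The part of these marker lists in the results was not tested. In bulk samples, fewer cells of a type and less RNA per cell cannot be told apart.

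**Figure D1:**
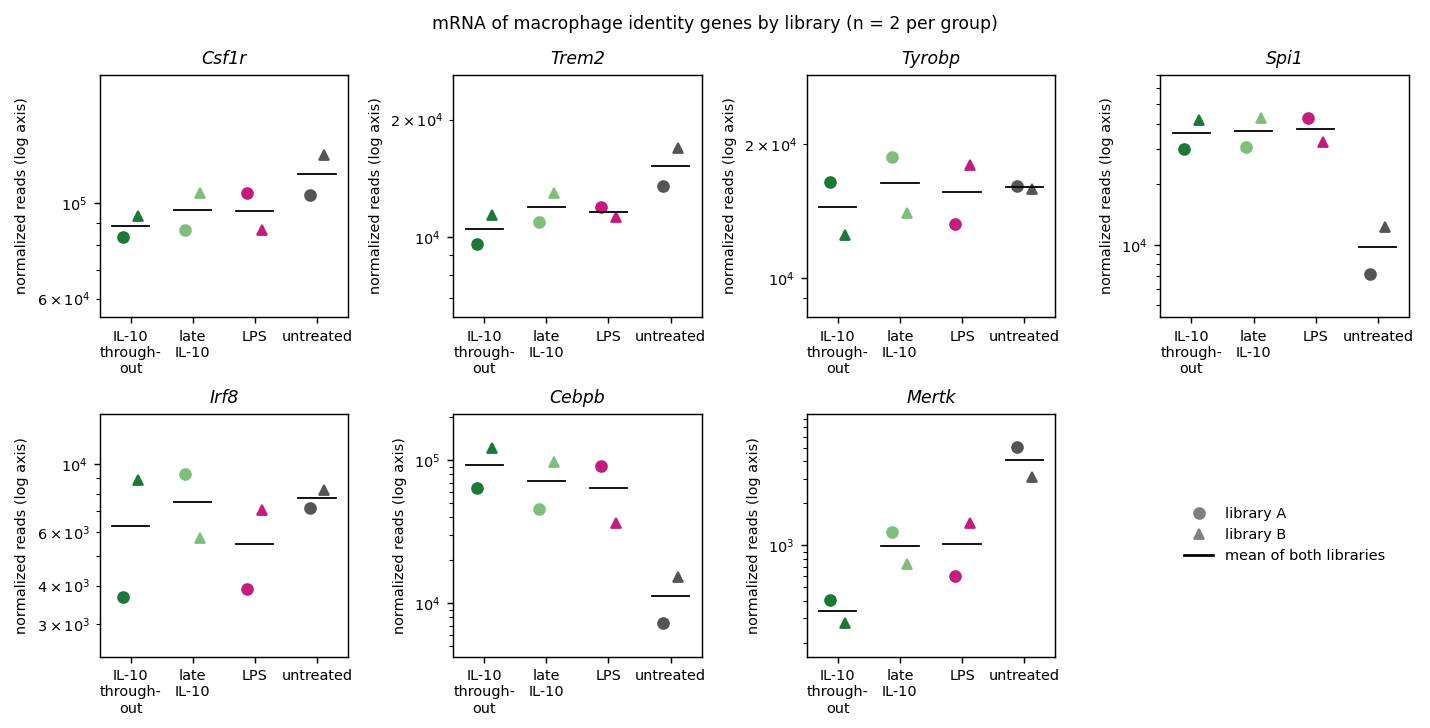
Mature mRNA of the 7 genes, in normalized reads on a log axis, by library and group. Circles are library A, triangles library B and bars the mean of both; Spi1 and Cebpb lie higher, and Mertk lower, in every LPS-treated library than in both untreated libraries.

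In untreated macrophages, levels per kilobase of the longest transcript placed Tyrobp and Csf1r at the top and Mertk at the bottom. Tyrobp mRNA stood at 26800 normalized reads per kilobase and Csf1r at 24900, with overlapping libraries. Trem2 followed at 13970, Cebpb at 7536, Spi1 at 4788, Irf8 at 2715 and Mertk at 945.2. The libraries of Cebpb and Spi1 overlapped (4872 and 10200 against 3519 and 6057); the other neighbours in this order below Csf1r did not. Under LPS, Spi1 stood above Trem2, with libraries that did not overlap, and Cebpb had the highest mean at 42400 per kilobase, ahead of Tyrobp at 26110, Csf1r at 20400, Spi1 at 18480, Trem2 at 10650, Irf8 at 1922 and Mertk at 238.8. The 2 LPS libraries of Cebpb, at 60370 and 24440 per kilobase, overlapped those of Tyrobp.

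LPS alone, set against untreated cells, asks what the inflammatory stimulus did to these genes. By mature mRNA, 3 of 7 members passed the threshold (limma, Benjamini-Hochberg adjusted p under 0.05), beside 35.7% of all 11415 genes tested, so the share of members is close to the background. Spi1 and Cebpb rose, and Mertk fell. Csf1r, Trem2, Tyrobp and Irf8 did not pass. By pre-mRNA, 2 of the 6 tested members passed, beside 44.0% of all 11131 genes: Trem2 fell and Spi1 rose. Cebpb is a single-exon gene and had 0 pre-mRNA reads in all 8 libraries, so its precursor was not measured.

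Csf1r mRNA was abundant throughout. It measured 105256 and 86524 normalized reads with LPS, against 104549 and 129546 in untreated cells, and the groups overlapped. The log2 change was -0.29 ± 0.26 (SE, n = 2 libraries per group; limma adjusted p = 0.434). Csf1r pre-mRNA measured 6383 and 7922 with LPS, against 12137 and 12361 in untreated cells, so both LPS libraries lay lower; the change of -0.78 ± 0.29 missed the threshold (limma adjusted p = 0.0594). The 3′ end of Csf1r overlaps Hmgxb3 on the opposite strand, and whether counting used the strand is not given in the sources used here.

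Trem2 showed the largest difference between precursor and mature transcript among the members. Trem2 pre-mRNA measured 61.1 and 162.0 normalized reads with LPS (52 and 120 reads), against 6343 and 6665 in untreated cells (11908 and 4574 reads). The groups were far apart, and the LPS mean was 1.71% of the untreated mean. The change was -6.01 ± 0.49 (limma adjusted p = 0.000138), and it passed without any 1 library and under every other setting tried. Trem2 mRNA, by contrast, measured 11923 and 11249 with LPS, against 13494 and 16902 in untreated cells; both LPS libraries were lower, at 76.2% of the untreated mean, but the change of -0.38 ± 0.21 did not pass (limma adjusted p = 0.195). The pre-mRNA change was lower than the mRNA change by -5.63 ± 0.58 (limma adjusted p = 0.000808), the only member of 6 past the threshold for this difference, beside 1.24% of all genes. That test takes the measures as independent, yet the same RNA gave both. Trem2 spans 7747 bases (chr17:48346401-48354147, + strand) in 5 exons.

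Tyrobp, the signalling partner of Trem2, measured 13241 and 17938 mRNA reads with LPS, against 16125 and 15879 in untreated cells. The LPS libraries lay on both sides of the untreated ones, and the change was -0.05 ± 0.26 (limma adjusted p = 0.890). Its pre-mRNA was low in all groups, at 179.8 and 500.7 with LPS against 610.5 and 998.2 in untreated cells. The change of -1.38 ± 0.63 did not pass (limma adjusted p = 0.110), although it did, at -2.11, without LPS library B (adjusted p = 0.0327).

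Mertk mRNA measured 609.0 and 1446 with LPS, against 5049 and 3083 in untreated cells. The groups did not overlap, and the LPS mean was 25.3% of the untreated mean. The change was -2.07 ± 0.49 (limma adjusted p = 0.0173). It fell short of the threshold, in the same direction, without untreated library A (-1.72, adjusted p = 0.0984) or without LPS library A (-1.45, adjusted p = 0.0620). Mertk pre-mRNA measured 6040 and 1916 with LPS, against 8599 and 4195 in untreated cells; these groups overlapped, and the change was -0.82 ± 0.68 (limma adjusted p = 0.356). The gene spans 103939 bases in 19 exons on chromosome 2, and its span contains the antisense gene Gm14011 and the small nucleolar RNA gene Gm23172, neither in the table.

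Among the factors, Spi1 rose in both measures. Spi1 mRNA measured 42720 and 32447 with LPS, against 7159 and 12319 in untreated cells, and every LPS library was above both untreated ones. The change was 1.99 ± 0.35 (limma adjusted p = 0.00572), and it passed with each library left out in turn. Spi1 pre-mRNA measured 15571 and 13596 with LPS, against 3729 and 4972 in untreated cells, again with no overlap. The change of 1.76 ± 0.29 (limma adjusted p = 0.00241) was close in size to that of the mRNA, and the pre-mRNA change minus the mRNA change was -0.23 ± 0.45 (limma adjusted p = 0.971).

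Cebpb mRNA measured 90791 and 36754 with LPS, against 7327 and 15340 in untreated cells. All LPS values lay above the untreated ones, but the libraries within each group were far apart, by 1.30 and 1.07 on the log2 scale. The change was 2.45 ± 0.62 (limma adjusted p = 0.0225), and it was not past the threshold without untreated library A (1.91, adjusted p = 0.122) or without LPS library A (1.79, adjusted p = 0.0929). Cebpb shares its locus with Tmem189 on the opposite strand. Irf8 mRNA measured 3896 and 7050 with LPS, against 7206 and 8254 in untreated cells, lower in both LPS libraries but by -0.56 ± 0.48 only (limma adjusted p = 0.401). Irf8 pre-mRNA measured 3673 and 1767 with LPS, against 4390 and 5502 in untreated cells, with a change of -0.95 ± 0.45 (limma adjusted p = 0.119). Without LPS library A that change was -1.48 (adjusted p = 0.0445). The annotated readthrough gene Gm20388 covers Irf8 on the same strand and is not in the table.

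These directions are relative to the deposited scaling, in which the median gene changed by 0.01 on the log2 scale with LPS by mRNA. Scaling each library to its total reads shifted the median gene of LPS against untreated by -0.75 by mRNA and -0.91 by pre-mRNA, and the share of called genes that rose was 21.11% in place of 53.75% by mRNA and 20.9% in place of 50.67% by pre-mRNA. Under it 6 of 7 members passed by mRNA, beside 49.9% of all genes: Csf1r (-1.04), Trem2 (-1.13), Tyrobp (-0.80) and Irf8 (-1.31) were then lower with LPS, Spi1 and Mertk were called as before, and Cebpb (1.70, adjusted p = 0.0755) was not. By pre-mRNA all 6 tested members passed, beside 53.2% of all genes, with Csf1r at -1.70, Tyrobp at -2.29, Irf8 at -1.87 and Mertk at -1.74.

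**Figure D2:**
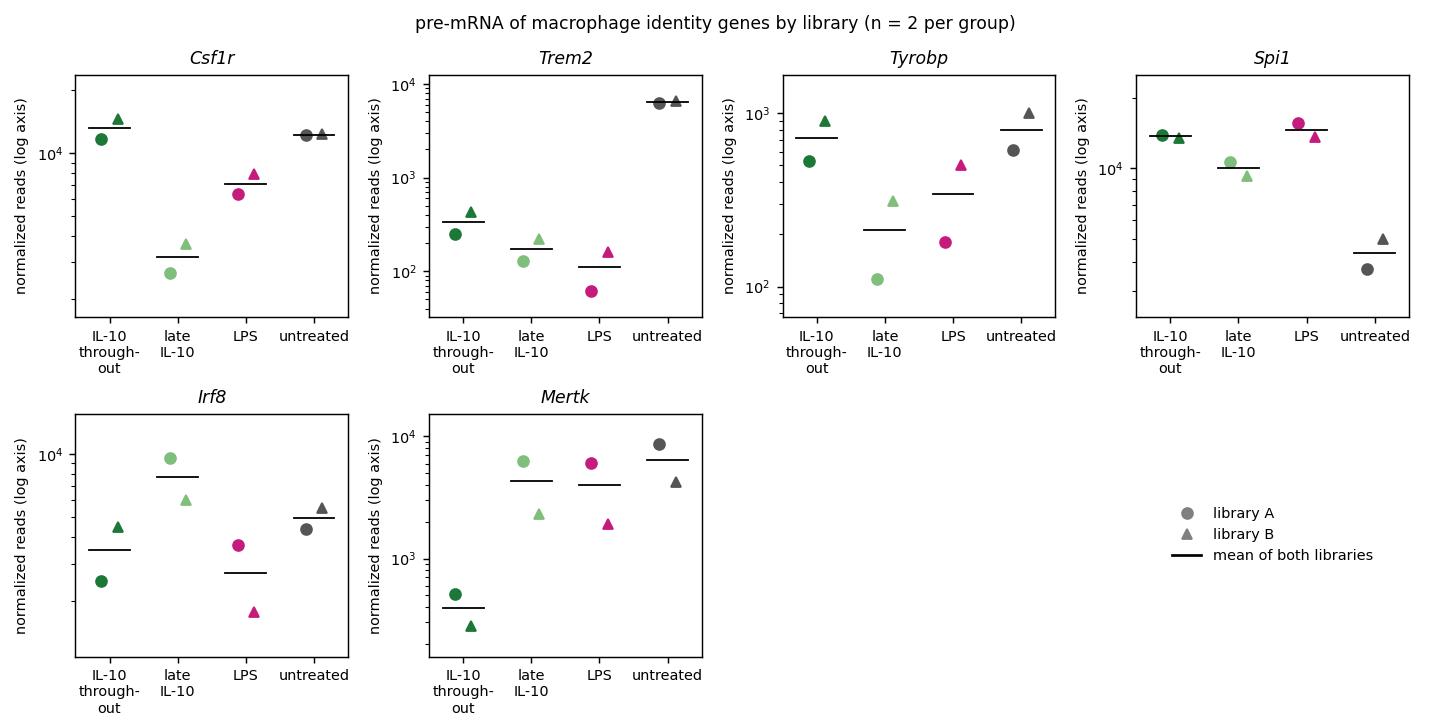
Pre-mRNA of the 6 members with precursor reads, in normalized reads on a log axis, by library and group. Circles are library A, triangles library B and bars the mean of both; Trem2 is lower in every LPS-treated library than in untreated ones, and Mertk is lowest with IL-10 throughout.

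IL-10 given throughout, set against LPS alone, asks what the cytokine changed over the same 195 min. By mature mRNA, limma called 0 of 7 members, beside 2.24% of all genes, and limma-voom also called 0; 1 member, Mertk, had an unadjusted p under 0.05. By pre-mRNA 1 of 6 passed, beside 6.7% of all genes, and it was Mertk, which fell. The LPS libraries are shared with the late IL-10 comparison.

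Mertk pre-mRNA measured 514.0 and 280.5 with IL-10 throughout, against 6040 and 1916 with LPS alone. Both IL-10 libraries lay below both LPS libraries, and the change was -3.16 ± 0.68 (limma adjusted p = 0.0380). The direction was kept but the call was lost in several other fits: adjusted p was 0.0987 with no filter on low values, 0.0550 with only these 2 groups fitted and 0.166 (-2.33) without LPS library A. It also missed the threshold without IL-10 library A (-3.60, adjusted p = 0.0984) or B (-2.72, adjusted p = 0.222), and without untreated library A (adjusted p = 0.0640) or B (adjusted p = 0.0631). Mertk mRNA measured 404.8 and 277.3 with IL-10 throughout, against 609.0 and 1446 with LPS. These groups did not overlap either, yet the change of -1.48 ± 0.49 did not pass (limma adjusted p = 0.213). Over the same groups the summed dendritic cell markers, mostly Itgax, were also lower by mRNA with IL-10 throughout (3057 to 4661, against 9528 to 17950). By mRNA 0 of these 5 markers passed (2.24% of all genes), and by pre-mRNA 1 fell, Itgax (6.7% of all genes). In untreated cells the sum was lower than with LPS, at 1363 to 2911, while Mertk mRNA was higher. The part of these markers in the Mertk values was not tested.

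The other receptors and the adaptor had pre-mRNA values above LPS that did not pass. Csf1r pre-mRNA measured 11717 and 14528 with IL-10 throughout, against 6383 and 7922 with LPS, and the groups did not overlap (0.88 ± 0.29, limma adjusted p = 0.118). Trem2 pre-mRNA measured 250.0 and 425.0, against 61.1 and 162.0 with LPS, also without overlap (1.70 ± 0.49, limma adjusted p = 0.0857). Without LPS library B, the Trem2 change was 2.40 (adjusted p = 0.0243). Tyrobp pre-mRNA measured 531.0 and 899.6 with IL-10 throughout, against 179.8 and 500.7 with LPS, a change of 1.20 ± 0.63 (limma adjusted p = 0.307). In Trem2 the level with IL-10 throughout was 3.03 times that with LPS but still 5.19% of the untreated mean.

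Mature mRNA of the same genes stayed within the libraries' spread. Csf1r measured 83293 and 93559 with IL-10 throughout, against 105256 and 86524 with LPS (-0.11 ± 0.26, limma adjusted p = 0.928). Trem2 measured 9636 and 11390, against 11923 and 11249 with LPS, and Tyrobp 16409 and 12466, against 13241 and 17938. All 3 pairs of groups overlapped. In none of the 6 members did limma find that the pre-mRNA change differed from the mRNA change past the threshold, with IL-10 throughout (0.0629% of all genes) or with late IL-10 (0.135%); unadjusted, Csf1r and Trem2 had a p under 0.05 with IL-10 throughout and Csf1r with late IL-10.

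None of the 3 factors passed the threshold with IL-10 throughout against LPS. Spi1 mRNA measured 29949 and 41713 with IL-10 throughout, against 42720 and 32447 with LPS, and Spi1 pre-mRNA 13907 and 13468, against 15571 and 13596. The log2 changes were -0.07 ± 0.35 by mRNA and -0.09 ± 0.29 by pre-mRNA (limma adjusted p = 0.969 and 0.898). Cebpb mRNA measured 63602 and 122560 with IL-10 throughout, against 90791 and 36754 with LPS, with overlapping groups (0.61 ± 0.62, limma adjusted p = 0.771). Its change ran over -0.04 to 1.26 when single libraries were left out, so these libraries do not settle its direction. Irf8 pre-mRNA measured 2473 and 4494, against 3673 and 1767 with LPS, and its mRNA 3680 and 8888, against 3896 and 7050. All pairs of groups overlapped here.

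Late IL-10, set against LPS alone, asks what 30 min of the cytokine did to an established response. By mRNA limma called 0 of 7 members and 0.0% of all genes, with 0 members and 107 genes at an unadjusted p under 0.05, and limma-voom called 0 members and 0 genes. Those 107 of 11415 genes are fewer than such a p would pass if no gene differed, so the fit was conservative here. The 0 calls by mRNA therefore do not show that late IL-10 had no effect. By pre-mRNA limma called 0 of 6 members, beside 1.04% of all genes, and limma-voom also 0; Csf1r and Irf8 had an unadjusted p under 0.05. Csf1r pre-mRNA measured 2680 and 3664 with late IL-10, against 6383 and 7922 with LPS, lower in both libraries (-1.18 ± 0.29, limma adjusted p = 0.158). Irf8 pre-mRNA measured 9505 and 6058, against 3673 and 1767 with LPS, higher in both (1.57 ± 0.45, limma adjusted p = 0.247). Spi1 pre-mRNA measured 10676 and 9291, against 15571 and 13596 with LPS, also without overlap (-0.55 ± 0.29, limma adjusted p = 0.853).

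For Mertk the late group lay where LPS lay. Mertk pre-mRNA measured 6241 and 2334 with late IL-10, against 6040 and 1916 with LPS (0.17 ± 0.68, not called), and Mertk mRNA 1250 and 738.9, against 609.0 and 1446. Trem2 pre-mRNA measured 128.0 and 219.9, against 61.1 and 162.0, and Tyrobp pre-mRNA 111.3 and 310.8, against 179.8 and 500.7. Groups overlapped for each of these 3 genes.

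The timing of IL-10 was compared directly between the groups given it throughout and late. By mRNA limma called 0 of 7 members, beside 1.09% of all genes, and limma-voom called 0; Mertk alone had an unadjusted p below 0.05 (1 member). By pre-mRNA 2 of 6 passed, beside 2.96% of all genes. Csf1r pre-mRNA rose, at 11717 and 14528 with IL-10 throughout against 2680 and 3664 with late IL-10 (2.06 ± 0.29, limma adjusted p = 0.0258). Mertk pre-mRNA fell, at 514.0 and 280.5 against 6241 and 2334 (-3.33 ± 0.68, limma adjusted p = 0.0488). Both calls were lost, with direction kept, when only these 2 groups were fitted (adjusted p = 0.0573 and 0.0653), with no filter (0.0562 and 0.114) and without any 1 library of the groups compared. Without single libraries, the Csf1r change ranged over 1.83, 1.90, 2.21 and 2.28 and the Mertk change over -2.62, -2.89, -3.76 and -4.04. Mertk was also lost without untreated library A (adjusted p = 0.0820) or B (adjusted p = 0.0798). Mature Csf1r did not follow, at 83293 and 93559 against 86740 and 105479 (-0.12 ± 0.26, limma adjusted p = 0.922).

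**Figure D3:**
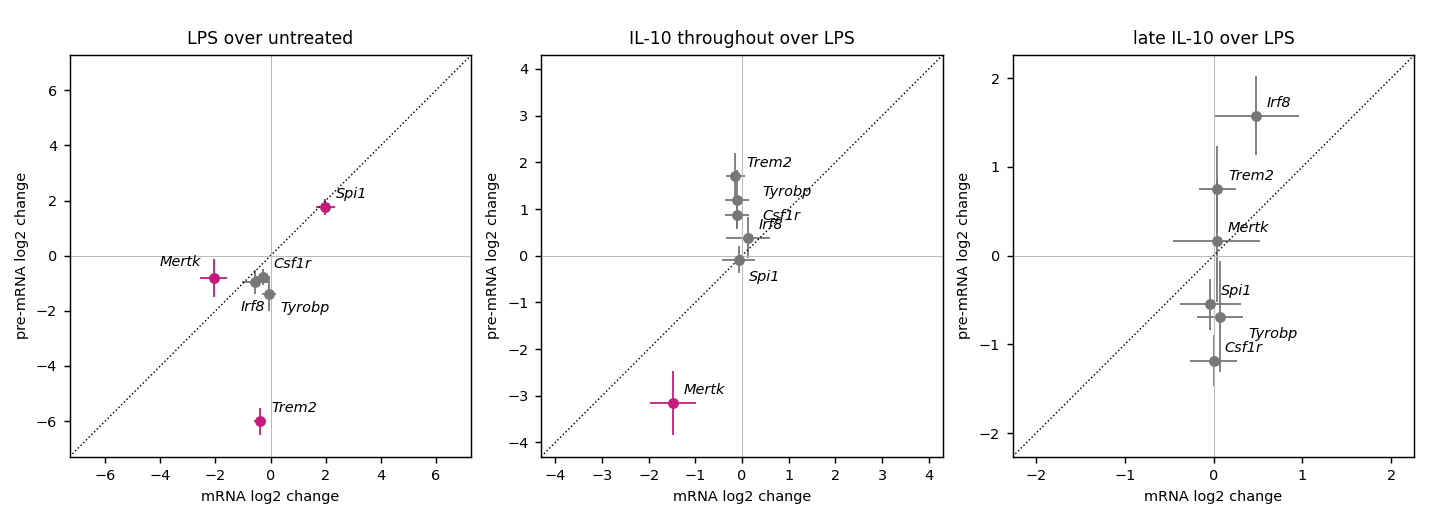
Log2 change of mRNA (horizontal axis) and pre-mRNA (vertical axis) for 6 members in 3 comparisons, with standard errors as bars and the line of equal change dotted. Magenta marks genes past the threshold in either measure; Trem2 lies far below the line with LPS, where its pre-mRNA changed by -6.01 and its mRNA by -0.38.

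Against untreated cells, which all 3 LPS-treated groups share as their baseline, Trem2 pre-mRNA, Spi1 in both measures, Cebpb mRNA and Mertk mRNA had the same calls with either IL-10 schedule as with LPS alone. With IL-10 throughout, 3 of 7 members passed by mRNA (25.8% of all genes) and 3 of 6 by pre-mRNA (28.8%). Spi1 rose by 1.91 ± 0.35 (limma adjusted p = 0.00878) by mRNA. Mertk fell by 3.55 ± 0.49 by mRNA (limma adjusted p = 0.00293) and by 3.98 ± 0.68 by pre-mRNA (limma adjusted p = 0.00473), calls that did not depend on any 1 library. Trem2 pre-mRNA fell by 4.31 ± 0.49 (limma adjusted p = 0.000846). Csf1r pre-mRNA, at 11717 and 14528 against 12137 and 12361 in untreated cells, overlapped the untreated values (0.09 ± 0.29, limma adjusted p = 0.838). Cebpb rose by 3.06 ± 0.62 by mRNA (limma adjusted p = 0.0138), and lost the call without untreated library A (2.53, adjusted p = 0.0839) or without IL-10 library B (2.59, adjusted p = 0.0631).

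With late IL-10, 3 of 7 passed by mRNA (36.1% of all genes) and 4 of 6 by pre-mRNA (43.5%). Csf1r pre-mRNA fell, at 2680 and 3664 against 12137 and 12361 in untreated cells (-1.97 ± 0.29, limma adjusted p = 0.00154). Tyrobp pre-mRNA fell, at 111.3 and 310.8 against 610.5 and 998.2 (-2.06 ± 0.63, limma adjusted p = 0.0311), a call lost when untreated library A (-2.42), untreated library B (-1.71) or late library A (-1.33) was left out, and with no filter (adjusted p = 0.0695). Trem2 pre-mRNA fell by 5.27 ± 0.49 (limma adjusted p = 0.000225). Spi1 rose by 1.21 ± 0.29 by pre-mRNA (limma adjusted p = 0.0120), and not past the threshold without untreated library A (1.00, adjusted p = 0.0800) or late library A (1.11, adjusted p = 0.0862) or with total-read scaling (0.32). By mRNA Spi1 rose by 1.95 ± 0.35 (limma adjusted p = 0.00609). Cebpb rose by 2.65 ± 0.62 (limma adjusted p = 0.0168) and Mertk fell by 2.04 ± 0.49 (limma adjusted p = 0.0180) by mRNA. Both were lost without untreated library A (2.12 for Cebpb and -1.68 for Mertk) or late library B (2.12 and -1.66), and Cebpb also with total-read scaling (1.89, adjusted p = 0.0534).

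The other genes of the same pathways, 116 of 125 listed being in the table, were counted from 8 lists. With LPS, 28 rose and 14 fell by mRNA, beside 2193 and 1887 of all 11415 genes (35.7% called), with a median change of 0.28, against 0.01 over all genes. By the floor on LPS reads, listed genes that LPS brought below that floor could not be counted. Genes near 0 reads in untreated cells could be. The split into rises and falls does not weigh the missing genes, in the lists or over all genes. With IL-10 throughout against LPS, 7 rose and 7 fell among the 112 tested by pre-mRNA, beside 272 and 474 of all 11131 genes (6.7% called). The same shares are the background of each single list.

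**Figure D4:**
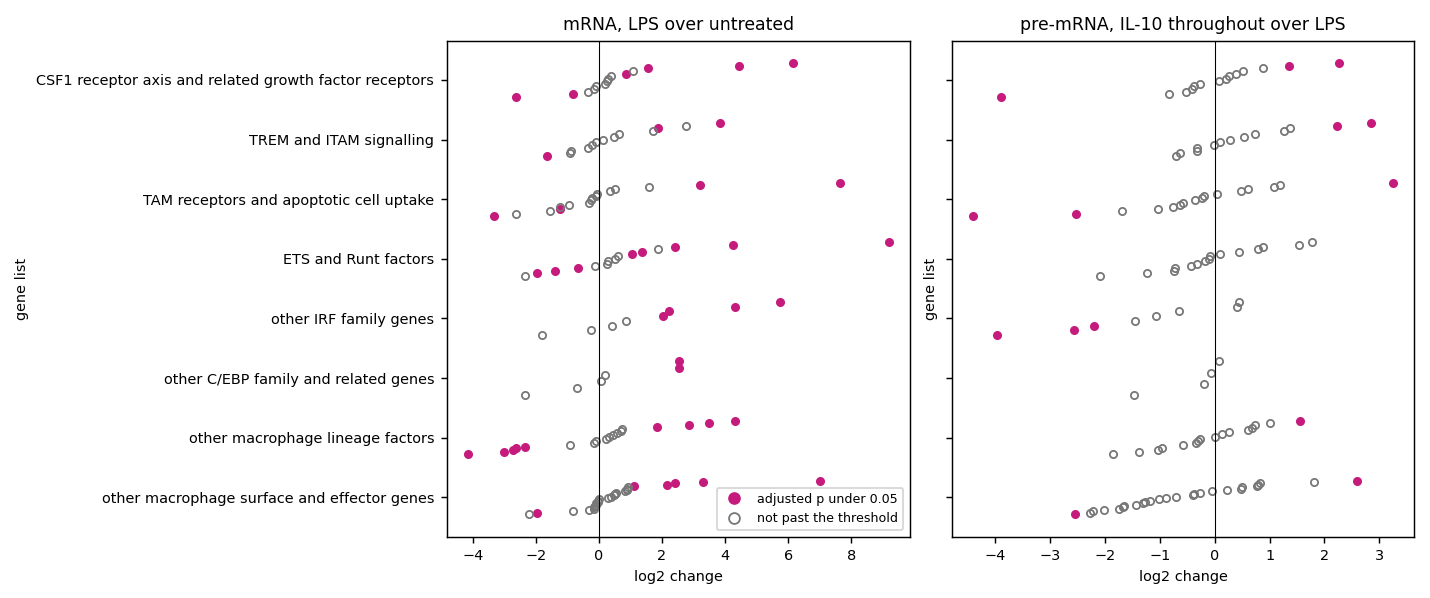
Log2 change of each listed gene by pathway list, by mRNA for LPS over untreated (left) and by pre-mRNA for IL-10 throughout over LPS (right). Filled points passed an adjusted p of 0.05 and open points did not; of 116 genes, 28 rose and 14 fell on the left, and of 112, 7 rose and 7 fell on the right.

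Around Csf1r, genes for both ligands rose with LPS while the receptor mRNA did not pass the threshold. Of 14 genes of the CSF1 receptor list tested (15 listed), 4 rose and 2 fell by mRNA with LPS. Csf1, which encodes the main ligand, averaged 16897 mRNA reads with LPS, against 216.8 in untreated cells (6.14 ± 0.55, limma adjusted p = 0.000426). Il34, the second ligand, averaged 31.6, against 0.62 in untreated cells (4.43 ± 0.59, limma adjusted p = 0.00196), a value that depends on the 1 added to so few reads. With IL-10 throughout, Csf1 pre-mRNA fell to 337.5, against 5345 with LPS (-3.90 ± 0.58, limma adjusted p = 0.0128), and Inpp5d, the SHIP1 phosphatase, rose to 7881, against 1608 with LPS (2.26 ± 0.28, limma adjusted p = 0.00726).

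Around Trem2 and Tyrobp, 2 of 13 tested genes of the TREM and ITAM list rose and 1 fell by mRNA with LPS. Syk, the kinase recruited by phosphorylated ITAMs, averaged 87409 with LPS, against 24049 in untreated cells (1.87 ± 0.22, limma adjusted p = 0.00118). Clec5a, another receptor that signals through Tyrobp, averaged 6498, against 428.1 (3.85 ± 0.50, limma adjusted p = 0.00183). With IL-10 throughout, 2 of 13 rose by pre-mRNA and 0 fell: Vav1, a guanine nucleotide exchange factor downstream of Syk, averaged 13322, against 2843 with LPS (2.23 ± 0.24, limma adjusted p = 0.00480), and Sirpb1a, also a Tyrobp-coupled receptor family member, 128.8, against 16.1 (2.85 ± 0.52, limma adjusted p = 0.0232).

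Around Mertk, 2 of 16 genes for apoptotic cell uptake rose and 2 fell by mRNA with LPS, while 3 rose and 6 fell by pre-mRNA, beside 44.0% of all genes called. The phosphatidylserine receptor Timd4 averaged 2140 mRNA reads with LPS, against 13.4 in untreated cells (7.64 ± 0.71, limma adjusted p = 0.000474), and the integrin subunit Itgav 82307, against 8935 (3.22 ± 0.46, limma adjusted p = 0.00257). Axl, the TAM receptor related to Mertk, had pre-mRNA of 3984 with LPS, against 413.5 in untreated cells (3.42 ± 0.40, limma adjusted p = 0.000587). With IL-10 throughout, 1 of 16 rose (Lrp1) and 2 fell by pre-mRNA, beside 6.7% of all genes called. Axl pre-mRNA fell to 693.8, against 3984 with LPS (-2.52 ± 0.40, limma adjusted p = 0.0157). Timd4 pre-mRNA fell to 264.2, against 5440 with LPS (-4.41 ± 0.73, limma adjusted p = 0.0171). Gas6, the Mertk ligand, is named after its values were seen: its pre-mRNA averaged 104.6 with LPS, against 2567 in untreated cells (-4.61 ± 0.61, limma adjusted p = 0.000932), and its mRNA 4807, against 11257 (-1.23 ± 0.31, limma adjusted p = 0.0209).

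Among factors related to Spi1, 5 of 15 ETS and Runt genes rose and 3 fell by mRNA with LPS. The repressor Gfi1 averaged 2738 with LPS, against 3.18 in untreated cells (9.18 ± 0.73, limma adjusted p = 0.000269), again from few untreated reads, and Ets2 24002, against 1296 (4.24 ± 0.35, limma adjusted p = 0.000296). No gene of this list passed by pre-mRNA with IL-10 throughout, where 0 of 15 rose and 0 fell. Among the other IRF genes, 4 of 8 rose with LPS and 0 fell. Irf1 averaged 44635 mRNA reads, against 2199 in untreated cells (4.31 ± 0.37, limma adjusted p = 0.000375), and Irf7 16347, against 277.9 (5.75 ± 0.65, limma adjusted p = 0.00104). With IL-10 throughout 3 of 8 fell by pre-mRNA, among them Irf1 at 1980 against 8980 with LPS (-2.19 ± 0.30, limma adjusted p = 0.00935) and Irf4 at 21.1 against 315.9 (-3.97 ± 0.62, limma adjusted p = 0.0154).

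Of 6 genes related to Cebpb, 2 rose and 0 fell by mRNA with LPS: Cebpd averaged 6443, against 1017 in untreated cells (2.54 ± 0.48, limma adjusted p = 0.00769), and Trib1, a pseudokinase that directs C/EBP alpha to degradation, 8366, against 1437 (2.53 ± 0.31, limma adjusted p = 0.00136). Of 18 other macrophage lineage factors, 4 rose and 5 fell. Tfec, a MiT family factor, averaged 10032 with LPS, against 504.4 in untreated cells (4.32 ± 0.33, limma adjusted p = 0.000226). With IL-10 throughout Rxra, the retinoid X receptor, had pre-mRNA of 772.7, against 260.5 with LPS (1.55 ± 0.31, limma adjusted p = 0.0311). Of 26 other macrophage surface and effector genes, 5 rose and 1 fell by mRNA with LPS, including the LPS co-receptor Cd14 at 253448 against 26412 (3.30 ± 0.30, limma adjusted p = 0.000445) and the scavenger receptor Msr1 at 27169 against 6001 (2.17 ± 0.26, limma adjusted p = 0.00131). With IL-10 throughout the integrin subunit Itgam had pre-mRNA of 3856, against 623.2 with LPS (2.60 ± 0.25, limma adjusted p = 0.00383), and the beta-glucan receptor Clec7a 184.7, against 1186 (-2.54 ± 0.51, limma adjusted p = 0.0313).

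Genes whose group pattern lay nearest to each member were found by the distance between the 8 group values, 4 of mRNA and 4 of pre-mRNA, on the log2 scale and centred per measure, among 8210 genes. Trem2 was nearest to Abcc3, at 0.93, and Ptgs1, at 1.01, where the median distance of all genes was 4.77. Mertk was nearest to Fam196b, at 1.40, and Pde7b, at 1.48, with a median of 4.22. Spi1 was nearest to Adrbk2, at 0.33, and Eif4e, at 0.39, with a median of 2.30. Csf1r was nearest to Pygl and Xylt2 (0.51 and 0.54), Tyrobp to Pygl and Tecr (0.37 and 0.45), and Irf8 to Nrm and Mpnd (0.33 and 0.41). Cebpb, over its 4 mRNA values, was nearest to Htra1 and Pgs1 (0.10 and 0.12). The distances rest on 8 group means that share libraries and describe likeness only.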

How the data were processed

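Per the labels' protocols, RNA was extracted with TRIzol, depleted of ribosomal RNA and made into directional libraries, 2 per group. The authors deposited 1 table of normalized signal, with mRNA and pre-mRNA columns for every group. Trim Galore, DESeq and the build mm10 are named per the submitters' processing notes. Which versions, aligner, counter, annotation and strand setting were used, and how reads were taken as precursor, is not given in the sources used here. Each deposited signal value is the mean of 2 libraries' normalized reads. Both libraries' whole reads were solved from it (100% of values solved once, relative tolerance 2e-14), and recomputed size factors matched in 16 of 16 library columns; the method was tested on simulated data. The 2 measures were normalized separately, and every p-value rests on this recovery. The smallest LPS mRNA count was 11, so genes below it are not in the table.

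Log2(normalized reads + 1), a scale that understates changes of low genes, was fitted with limma 3.58.1 in R 4.3.3 over all 8 libraries of a measure, with 1 term for group, keeping genes whose mean reached 1 (11415 by mRNA and 11131 by pre-mRNA). The spread is shared by all 4 groups. Adjusted p is Benjamini-Hochberg over all genes of a comparison, with 0.05 as the threshold; "rose" and "fell" mark calls. Pre-mRNA changes were set against mRNA changes in 1 fit over both measures. The labels do not number the deposited columns' libraries: A is the library with the larger size factor. Per the series' design text each group came from 2 separate pools of macrophages, but p-values measure only the spread between these libraries, which may be partly technical. Alternatives were a pseudocount of 8, no filter, a filter at 50, total-read scaling, limma-voom on the recovered reads, fits of only the 2 groups compared and leaving out each library.

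Named genes were all members, up to 2 per pathway list with the smallest adjusted p among those called by mRNA with LPS and up to 2 by pre-mRNA with IL-10 throughout, and for each member the 2 nearest genes with a mean of at least 100 in both measures; Cebpb, with no pre-mRNA reads, was compared by mRNA only and against the same genes. One gene that this rule names is not reported here. Transcript lengths and exons are from GENCODE M21. The members and lists were chosen with earlier results of these data known.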

Additional observations from a re-analysis of the deposited data

Results flagged for a closer look

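The pre-mRNA of 2 members differed between the IL-10 schedules when the groups were compared directly. IL-10 throughout minus late IL-10 came to 2.06 on the log2 scale for Csf1r pre-mRNA (limma adjusted p = 0.0258), with 2 of 2 libraries above both late ones. The same difference came to -3.33 for Mertk pre-mRNA (limma adjusted p = 0.0488), with 2 of 2 libraries below both late ones. Each lost its call when any 1 library of these groups was left out.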

How the results depend on the processing

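Across 1452 member values under alternatives, 1395 stayed on the same side of the threshold, 40 lost and 16 gained a call, and 1 reversed; 73 called in neither had the other sign. Most of the 1395 were values not called in the main fit, so that total says little about how stable the calls are. By mRNA, the setting with no filter kept the same 11415 genes as the main fit and could not move a value. The reversed value was Tyrobp mRNA, late IL-10 against untreated, at -0.74 with total-read scaling. That scaling called 6 members for LPS against untreated by mRNA (49.9% of all genes) and 6 by pre-mRNA (53.2%), and by mRNA 5 for IL-10 throughout (31.2%) and 5 for late IL-10 (50.8%) against untreated, with the median gene shifted; the share of called genes that rose was then 63.27% in place of 53.12% by mRNA and 52.9% in place of 36.46% by pre-mRNA for IL-10 throughout against LPS, 40.91% in place of 25.53% by pre-mRNA for IL-10 throughout against late IL-10, 29.15% in place of 55.19% by mRNA and 31.57% in place of 48.91% by pre-mRNA for IL-10 throughout against untreated, and 21.23% in place of 53.45% by mRNA and 21.55% in place of 50.29% by pre-mRNA for late IL-10 against untreated. Over all genes, IL-10 throughout against LPS had 256 calls by mRNA and 83 with only these 2 groups fitted, and by pre-mRNA 746, 289 with the 2 groups and 307 with no filter; against late IL-10 it had 124 by mRNA and 0 with the 2 groups, and by pre-mRNA 329, 19 and 26. Late IL-10 against LPS had 116 by pre-mRNA, 32 with the 2 groups and 65 with no filter, and by mRNA 0, or 3 with total-read scaling. With that scaling 88 genes in place of 138 differed between pre-mRNA and mRNA changes for LPS, and 9 in place of 15 for late IL-10. For IL-10 throughout against LPS and against late IL-10, pre-mRNA member counts were 0 with no filter and 0 with only the 2 groups fitted. Leaving out single libraries gave 1 to 3 members for LPS and for late IL-10 against untreated by mRNA, 2 to 3 for IL-10 throughout against untreated by mRNA, 2 to 4 and 2 to 3 by pre-mRNA for late IL-10 and LPS against untreated, and 0 to 2 by pre-mRNA for IL-10 throughout against LPS and against late IL-10. The cause of these moves was not tested. No paired analysis was possible because the deposited columns carry no replicate numbers. With 2 libraries per group, differences of the size of the libraries' spread were not detectable.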

Other observations

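Apoe, a lipid carrier bound by Trem2, is named after its values were seen: its pre-mRNA averaged 3.96 with LPS, against 72.5 in untreated cells (-4.08 ± 0.78, limma adjusted p = 0.00475). That change depends on the 1 added to so few reads. Apoe mRNA averaged 6034 against 4596 (0.49 ± 0.33, limma adjusted p = 0.286). No test of its pre-mRNA change against its mRNA change is given here. Lrp1, an endocytic receptor of the apoptotic cell uptake list, rose by 3.26 by pre-mRNA with IL-10 throughout against LPS. Fits without single libraries were not run for these listed genes.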
